A study of Homo sapiens with 4 samples.

Results

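The cytosolic ribosome is built from a small and a large subunit, and its protein shell is encoded by the ribosomal protein genes described here. They were chosen by name among the protein-coding genes of RefSeq: symbols of RPL or RPS followed by a number and any further letters, together with RPSA, RPLP0, RPLP1, RPLP2 and FAU, without the RPS6K kinases and without pseudogenes. The rule used no expression value and gave 89 genes, 36 with small-subunit symbols and 53 with large-subunit symbols. Of these, 63 had a probe set annotated to that gene alone, among 19751 genes measured in all. The rule also takes in 10 paralogue genes and, by its letters, RPS19BP1, which encodes a protein that binds RPS19 and is not itself a ribosomal protein.

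The RNA came from KYSE170, an established line of human oesophageal squamous cell carcinoma grown in RPMI medium with fetal bovine serum. One group of 2 arrays held cells given ethyl-3,4-dihydroxybenzoate (EDHB) at 50 µg/ml for 12 h, and the other group of 2 arrays held cells left untreated; the labels name no vehicle. EDHB is an inhibitor of prolyl hydroxylases, the oxygen-dependent enzymes that mark the hypoxia-inducible factors for destruction. Nothing in the labels says that the arrays of a group came from separate cultures, so the p-values below measure only the spread between these arrays, which may be technical.

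Each level below is the log2 of a deposited intensity, and each change is the EDHB mean minus the untreated mean on that scale. The median probe set had a log2 level of 4.54. The values of the second EDHB and second untreated array stood in another row order than those of the first pair, and were put back by an inference from the values alone. All 124 probe sets of ribosomal protein genes were recovered. As deposited, their median level was 6.41 on the second EDHB array and 6.53 on the second untreated array. After the order was restored it was 12.28 on both, against 12.28 on the first EDHB array and 12.36 on the first untreated array. Of 7 squamous epithelium markers, KRT5, DSG3 and SFN were above the median probe set, KRT14 was below it at 3.70, and KRT6A, KRT17 and TP63 had no restored probe set of their own. Among markers of other cell types, PTPRC, CD3E, CHGA and ALB were below the median probe set, while COL1A1 at 6.37 and PECAM1 at 5.08 were above it. Transcripts known to respond to hypoxia were higher on the EDHB arrays, with log2 changes of 2.30 for NDRG1, 1.32 for VEGFA and 1.14 for BNIP3. Their adjusted p in limma lay between 0.0763 and 0.0786 without an intensity trend and between 0.00792 and 0.0161 with it. Of the other genes listed to check the response to EDHB, CDKN1A was higher as well, with a change of 0.97. MYC had a change of 0.01 in the mean, 0.24 in replicate 1 and −0.21 in replicate 2. DDIT4 had no restored probe set of its own.

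Ribosomal proteins are made in near-equal amounts to assemble with ribosomal RNA, and growing cells spend much of their transcription and translation on them. Most of their mRNAs begin with a C followed by a run of pyrimidines, the terminal oligopyrimidine (TOP) tract. Through it the kinase mTORC1 and the RNA-binding protein LARP1 control how many ribosomes load on these mRNAs, a step that an array of total RNA does not measure. Hypoxia is known to lower mTORC1 activity.

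The TOP tract is a sequence that most of the family shares, and the starts of 12 genes named below are shown. Each is 15 bases before and 15 bases from the RefSeq transcript start (GRCh38.p14), on the strand of the gene and 5′ to 3′. Capitals mark the tract, a C at the start followed by at least 4 bases that are C or T, and a sequence with no capitals has none.
RPS6 (chr9:19380222-19380251, minus strand): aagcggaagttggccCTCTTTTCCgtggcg
RPL41 (chr12:56116618-56116647, plus strand): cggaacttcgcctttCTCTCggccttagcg
RPLP2 (chr11:809952-809981, plus strand): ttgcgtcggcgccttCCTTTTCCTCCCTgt
FAU (chr11:65122120-65122149, minus strand): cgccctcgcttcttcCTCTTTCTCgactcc
RPL22 (chr1:6199581-6199610, minus strand): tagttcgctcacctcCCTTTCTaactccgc
RPL22L1 (chr3:170870181-170870210, minus strand): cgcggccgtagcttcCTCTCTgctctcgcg
RPL36A (chrX:101390996-101391025, plus strand): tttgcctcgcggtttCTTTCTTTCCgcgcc
RPL36AL (chr14:49620612-49620641, minus strand): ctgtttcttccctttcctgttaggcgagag
RPS27 (chr1:153990747-153990776, plus strand): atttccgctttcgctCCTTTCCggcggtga
RPS27L (chr15:63157463-63157492, minus strand): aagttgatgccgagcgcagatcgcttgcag
RPL7L1 (chr6:42879601-42879630, plus strand): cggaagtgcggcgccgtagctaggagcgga
RPL26L1 (chr5:172958714-172958743, plus strand): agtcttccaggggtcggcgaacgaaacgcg
The pairs RPL22 and RPL22L1, RPL36A and RPL36AL, and RPS27 and RPS27L each set a ribosomal protein gene beside its paralogue. RPL22L1 keeps a tract, while RPL36AL and RPS27L do not have it. RPL36AL does hold a run of C and T across its start, which meets the looser pattern below, and RPS27L does not.

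Of 71 ribosomal protein genes with a listed start, 49 (69.0%) held the tract, against 988 of 15843 protein-coding genes (6.2%). A gene was counted if any of its listed starts held it, and only the strand of the transcript was read. The share was 47 of 63 (74.6%) for the genes of subunit proteins and 2 of 8 (25.0%) for the paralogues listed. With a looser window, a run of at least 7 C or T lying between 10 bases before and 15 bases after the start, the counts were 57 of 71 (80.3%) and 3388 of 15843 (21.4%). A match describes the letters at the listed start and is not a measurement of how the mRNA is translated.

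EDHB-treated and untreated KYSE170 cells had nearly the same ribosomal protein mRNA levels on these arrays. The 63 genes had a median log2 change of 0.007, and the median size of a change regardless of sign was 0.024. Over all 19751 genes the median change was −0.001 and the median size 0.110. The lowest change was −0.30 for RPS19BP1 and the highest 0.07 for RPLP2. None of the 63 genes was called at an adjusted p of 0.05, with limma without or with an intensity trend, across all genes with Benjamini-Hochberg adjustment. The fit without the trend called 2 of 19751 genes (0.0101%) and the fit with it 375 (1.9%). At an unadjusted p under 0.05, 2 of the 63 (3.2%) were counted without the trend and 4 (6.3%) with it, all lower on EDHB. Over all genes the share at that p was 16.8% without the trend and 18.3% with it in either direction, and 7.98% and 8.65% for lower genes alone.

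Both EDHB arrays were above both untreated arrays for 16 of the 63 genes (25.4%), near the 23.2% over all genes. Both were below for 9 genes (14.3%), against 22.5% over all genes. The replicate numbers did not give the same sign: 23 genes were higher on EDHB in replicate 1 and 47 in replicate 2, with median changes of −0.015 and 0.027. An array level is relative to all RNA hybridised, so fewer cells of a kind and less RNA per cell cannot be told apart, and RMA removes any shift common to most probe sets.

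**Figure D1:**
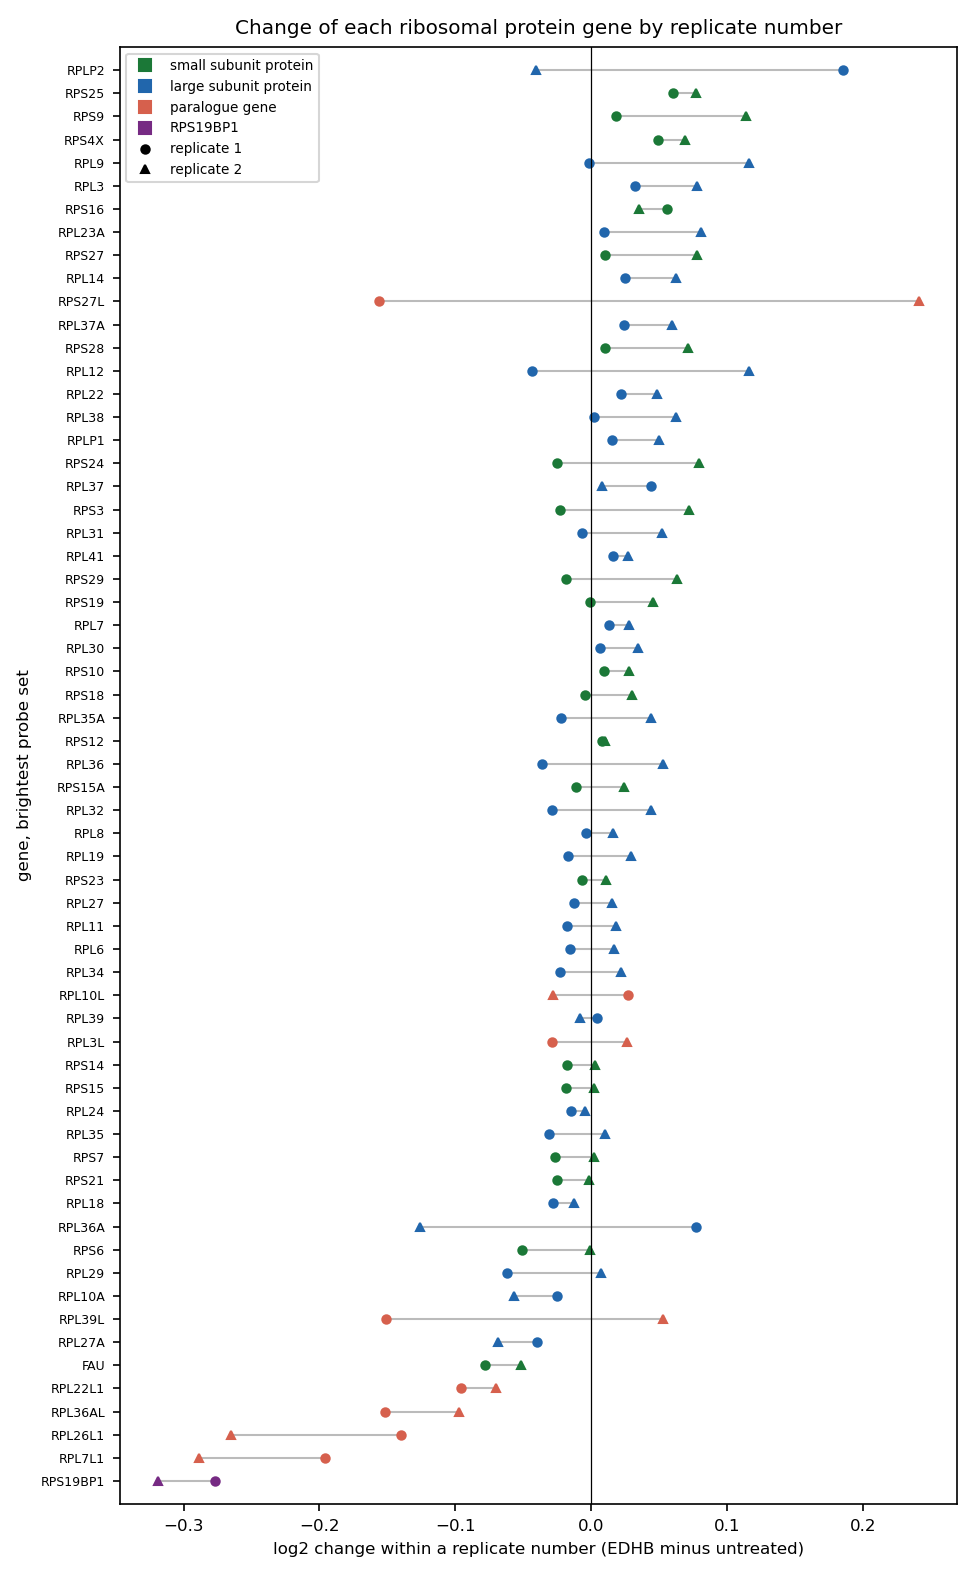
The log2 change (EDHB minus untreated, x axis) of each ribosomal protein gene without the Y-linked ones is drawn for replicate 1 (circle) and replicate 2 (triangle), one gene per line and sorted by mean change, with colours for the kind of gene. Of 62 genes, 19 were higher and 12 lower in both replicates, and RPS19BP1, RPL7L1, RPL26L1, RPL36AL and RPL22L1 lie at the low end in both replicates.

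The 95% confidence interval of limma for each gene's brightest probe set reached a median of 0.19 to each side of the change without the trend, and 0.08 with it. It lay within 1.5-fold either way for all 63 genes in both fits. Over every probe set of the family without the Y-linked genes, it passed 1.5-fold on at least 1 side for 6 of 123, among them dim probe sets of RPL37, RPL31 and RPS28 described below. The intervals cover the spread between arrays and not a flattening of the signal at high intensity, which was not tested. The smallest p an exact permutation test of 2 arrays against 2 can give is 0.333, so single genes were tested only in the fit across all genes.

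Ribosomal protein mRNAs were among the brightest signals on every array. Of the 100 brightest probe sets of a single gene, 44 belonged to the family. RPL41, the shortest of the ribosomal proteins, was the brightest probe set of a single gene on all 4 arrays and was picked out here for that rank after its values were seen. It had log2 levels of 13.71 and 13.71 on EDHB arrays, against 13.69 and 13.68 on untreated arrays.

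At a mean log2 level of 12 or more stood 49 members, with changes between −0.08 and 0.06 and a median of 0.011. None of the 49 differed by 0.1 or more in either direction. Of 128 other genes at this level, 29 (22.7%) did, with changes between −0.18 and 1.00. Array intensity can flatten near the top of its range, where these 49 lie. Levels of different probe sets depend on their probes and do not rank the mRNAs by amount.

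**Figure D2:**
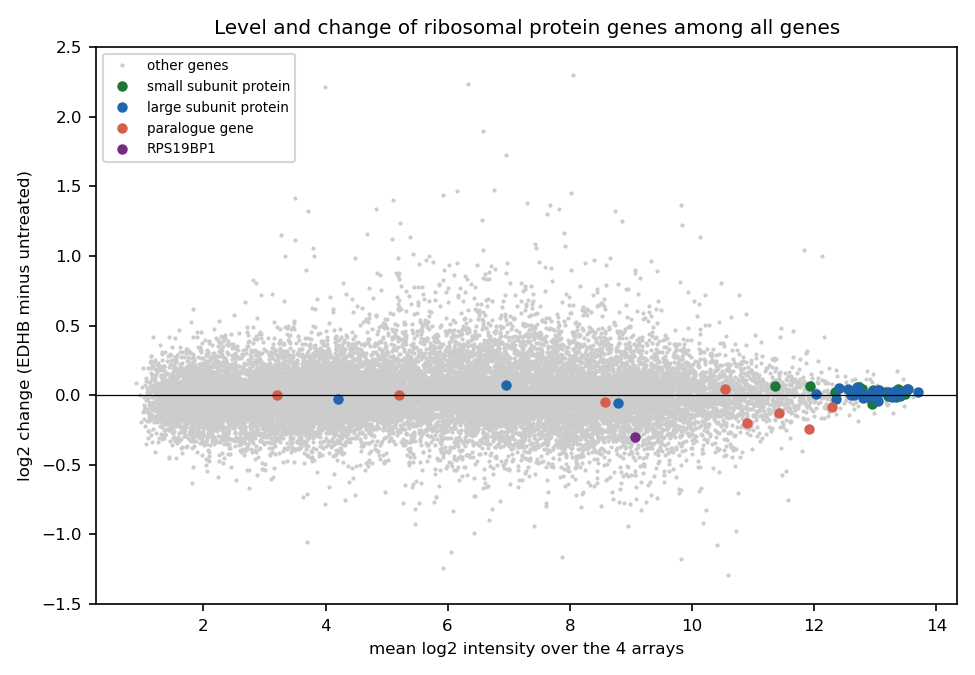
Each gene's log2 change (EDHB minus untreated, y axis) is plotted against its mean log2 intensity over the 4 arrays (x axis), grey for other genes and coloured for ribosomal protein genes. The coloured points crowd at the right end above a level of 12 and close to a change of 0, while the lower members such as RPS19BP1 lie further left and lower.

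The genes of small-subunit proteins were level as a group. The 21 measured had a median change of 0.019, within a range of −0.065 to 0.069. The median was −0.007 in replicate 1 and 0.030 in replicate 2. For 8 of the 21 (38.1%) both EDHB arrays were above both untreated arrays, against 23.2% of all genes. For 1 (4.8%) both were below, against 22.5% of all genes. RPS6, the substrate of S6 kinase downstream of mTORC1, had log2 levels of 12.91 and 12.97 on EDHB arrays, against 12.96 and 12.97 on untreated arrays. Its groups overlapped, and its change of −0.03 had a 95% interval of −0.22 to 0.17. RPS19, the gene most often mutated in Diamond-Blackfan anaemia, had 13.15 and 13.20 on EDHB arrays, against 13.15 and 13.15 on untreated arrays, a change of 0.02. These groups overlapped too.

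RPS4X, the X-linked form of RPS4, had 12.76 and 12.75 on EDHB arrays, against 12.71 and 12.68 on untreated arrays. RPS25, which viral internal ribosome entry sites need, had 11.41 and 11.38 on EDHB arrays, against 11.35 and 11.30 on untreated arrays. RPS9, a protein of the early-assembling small-subunit body, had 11.97 and 11.96 on EDHB arrays, against 11.95 and 11.84 on untreated arrays. In these 3 genes both EDHB arrays were above both untreated arrays, by 0.06 for RPS4X, 0.07 for RPS25 and 0.07 for RPS9. They were among the 5 largest positive changes of the family, and their adjusted p in limma without the trend lay between 0.718 and 0.756.

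FAU encodes the small-subunit protein RPS30 as a fusion to a ubiquitin-like protein. It had 12.91 and 12.92 on EDHB arrays, against 12.99 and 12.97 on untreated arrays. The groups did not overlap, the change was −0.065, and the adjusted p in limma was 0.729 without and 0.373 with the trend. The other fusion gene of the rule, RPS27A, had no probe set of its own.

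The genes of large-subunit proteins were level as well. The 32 measured had a median change of 0.010, within a range of −0.06 to 0.07. For 8 of the 32 (25.0%) both EDHB arrays were above both untreated arrays, against 23.2% of all genes. For 3 (9.4%) both were below, against 22.5% of all genes. RPL3, which lies close to the peptidyl transferase centre, had log2 levels of 12.46 and 12.42 on EDHB arrays, against 12.43 and 12.35 on untreated arrays. RPL7 had 13.23 and 13.25 on EDHB arrays, against 13.22 and 13.22 on untreated arrays. RPL39, which lines the exit tunnel of the nascent chain, had 13.40 and 13.39 on EDHB arrays, against 13.40 and 13.40 on untreated arrays. Their changes were 0.05 for RPL3, 0.02 for RPL7 and −0.002 for RPL39, and only RPL7 had groups that did not overlap. RPL9 had 12.69 and 12.77 on EDHB arrays, against 12.69 and 12.66 on untreated arrays, with overlapping groups and a change of 0.06.

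The stalk proteins RPLP1 and RPLP2 recruit elongation factors to the large subunit. RPLP1 had 13.32 and 13.36 on EDHB arrays, against 13.30 and 13.31 on untreated arrays. RPLP2 had 7.06 and 6.93 on EDHB arrays, against 6.88 and 6.97 on untreated arrays. The RPLP2 groups overlapped, and its change, 0.07 in the mean, was 0.19 in replicate 1 and below 0 in replicate 2. RPLP0, the base of the stalk, had no probe set of its own.

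Free ribosomal proteins, above all RPL5 and RPL11 bound to 5S ribosomal RNA, can block MDM2 and so stabilise p53 when ribosome assembly is disturbed. Of 9 MDM2-binding members 6 were measured, with a median change of 0.012 and a range of −0.01 to 0.04. RPL11 had 12.65 and 12.66 on EDHB arrays, against 12.67 and 12.64 on untreated arrays, and its change was 0.00 with an interval of −0.19 to 0.19. RPS3 had 12.35 and 12.36 on EDHB arrays, against 12.37 and 12.28 on untreated arrays. RPS7 had 12.85 and 12.88 on EDHB arrays, against 12.88 and 12.88 on untreated arrays.

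The other MDM2-binding members had mean changes of −0.007 for RPS14, 0.04 for RPS27 and 0.04 for RPS27L. RPS14 had 13.40 and 13.42 on EDHB arrays, against 13.42 and 13.42 on untreated arrays. RPS27 had 12.77 and 12.83 on EDHB arrays, against 12.76 and 12.75 on untreated arrays. RPS27L, a paralogue of RPS27 and a known p53 target, had 10.47 and 10.66 on EDHB arrays, against 10.63 and 10.42 on untreated arrays, so that its replicates ran in opposite directions. The 13 measured of 18 Diamond-Blackfan anaemia genes, which partly overlap these, had a median change of 0.011 and a range of −0.02 to 0.04.

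By each gene's brightest probe set, the low end of the family held paralogues and RPS19BP1 rather than the genes of the standard subunit proteins. Leaving the Y-linked genes aside, 8 paralogues and RPS19BP1 were measured, with a median change of −0.08. Of these 9 changes 8 were below 0, among them −0.002 for RPL3L and −0.001 for RPL10L. The 53 genes of subunit proteins had a median of 0.012, with 38 above 0 and 15 below. Both EDHB arrays were below both untreated arrays in 5 of the 9 (55.6%), against 22.5% of all genes. No gene of the 9 passed the adjusted threshold. The difference between the 9 and the 53 was not tested. Most of the 53 had levels of 12 or more, where signal may flatten, and most of the 9 did not. The order also depended on the probe set. With the mean of a gene's probe sets, RPL37 at −0.36 lay below RPS19BP1 at −0.30. With unsuffixed probe sets, subunit genes went both ways, among them RPS28 at −0.37, RPL31 at −0.33 and RPS6 at 0.18.

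RPS19BP1, also known as a regulator of the deacetylase SIRT1, had log2 levels of 8.99 and 8.84 on EDHB arrays, against 9.26 and 9.15 on untreated arrays. The groups did not overlap, and the change was −0.30 (SE 0.09, n = 2 arrays each) with an adjusted p in limma of 0.233 without and 0.119 with the trend. RPL7L1, a nucleolar relative of RPL7, had 11.85 and 11.73 on EDHB arrays, against 12.05 and 12.02 on untreated arrays. Its change of −0.24 had an adjusted p in limma of 0.257 without and 0.0783 with the trend, the lowest of the family in that fit.

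RPL26L1, a near-identical copy of RPL26, had 10.87 and 10.74 on EDHB arrays, against 11.01 and 11.00 on untreated arrays. Its change was −0.20, with an adjusted p in limma of 0.325 without and 0.141 with the trend. RPL36AL, the copy of RPL36A on chromosome 14, had 11.34 and 11.40 on EDHB arrays, against 11.49 and 11.50 on untreated arrays, a change of −0.12. RPL22L1, which can stand in for RPL22 in the ribosome, had 12.27 and 12.21 on EDHB arrays, against 12.37 and 12.28 on untreated arrays, a change of −0.08. In all 3 genes the EDHB arrays lay below the untreated ones in both replicates.

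RPL7, the partner of RPL7L1, had the change of 0.02 given above, and the partners of RPL22L1 and RPL36AL were also measured. RPL22 had 13.03 and 13.08 on EDHB arrays, against 13.01 and 13.03 on untreated arrays, a change of 0.04 with overlapping groups. RPL36A had 4.30 and 4.08 on EDHB arrays, against 4.22 and 4.20 on untreated arrays, below the median probe set, so that it gave no usable comparison with RPL36AL.

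The remaining paralogues, known in human tissues for narrow expression, did not move one way. RPL39L, found in testis and some tumours, had 8.57 and 8.52 on EDHB arrays, against 8.72 and 8.47 on untreated arrays. RPL10L, found in testis, had 5.28 and 5.14 on EDHB arrays, against 5.25 and 5.16 on untreated arrays. RPL3L, found in striated muscle, had 3.03 and 3.38 on EDHB arrays, against 3.06 and 3.35 on untreated arrays. All 3 had overlapping groups, and RPL3L was below the median probe set.

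The start sequences could be set against these changes for the 54 measured genes with a listed start. The 37 genes with a TOP tract had a median change of 0.011 and a range of −0.08 to 0.07. The 17 without one had a median of 0.001 and a range of −0.24 to 0.06. RPL7L1 and RPL26L1, with no tract among the starts listed, are at the low end of the second group, and RPL22L1, which has a tract, is at the low end of the first.

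Several members were measured by more than 1 probe set, and these did not always give the same change. Of the 123 probe sets left without the Y-linked genes, 66 had a mean level of 12 or more, and their changes ran from −0.08 to 0.08. Another 46 lay between the median probe set and 12, with a median change of −0.004 and a range of −0.66 to 0.23. Of these 46, 7 (15.2%) were lower on EDHB by 0.25 or more, against 9.9% of all 22652 probe sets of a single gene in that range of levels. Counted over all levels, 7 of 123 (5.7%) were lower by that much, against 8.91% of all 40964 probe sets of a single gene. None of the 123 reached an adjusted p below 0.147 in limma over every probe set, a fit that called 0 of 40964 (0%). At an unadjusted p under 0.05 it counted 10 of the 123 (8.1%), against 14.9% of all.

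RPL37, a zinc-binding protein of the large subunit, showed the widest spread among its probe sets. Its bright probe set had 13.04 and 13.07 on EDHB arrays, against 13.00 and 13.06 on untreated arrays. A dim one, 224766_at, had 5.55 and 5.52 on EDHB arrays, against 6.21 and 6.17 on untreated arrays, a change of −0.66 with an interval of −0.86 to −0.45 and an adjusted p of 0.147. The dim probe sets 224763_at and 224767_at were lower by less, with changes of −0.52 and −0.29. In all 3 dim probe sets of RPL37, both EDHB arrays were below both untreated arrays, while the bright one overlapped.

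RPS28, on the mRNA exit side of the small subunit, also had a dim probe set apart from the bright one. Its dim probe set 208903_at had 6.19 and 6.10 on EDHB arrays, against 6.54 and 6.49 on untreated arrays, a change of −0.37. Its bright probe set had a change of 0.04, and another dim one, 208902_s_at, a change of −0.002. RPL31, near the end of the exit tunnel, had 5.97 and 6.15 on EDHB arrays, against 6.51 and 6.27 on untreated arrays in its dim probe set 200962_at, a change of −0.33. Another RPL31 probe set, 221593_s_at, had a change of 0.17, and the bright one a change of 0.02. Which transcripts the dim probe sets detect was not tested.

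RPS29 was picked out after its values were seen, because its dim probe set 238824_at is among the 7. It had 5.56 and 5.61 on EDHB arrays, against 5.82 and 5.95 on untreated arrays, a change of −0.30, while its bright probe set changed by 0.02. The set of 7 thus held 3 probe sets of RPL37, 1 each of RPS28, RPS29 and RPL31, and that of RPS19BP1.

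**Figure D3:**
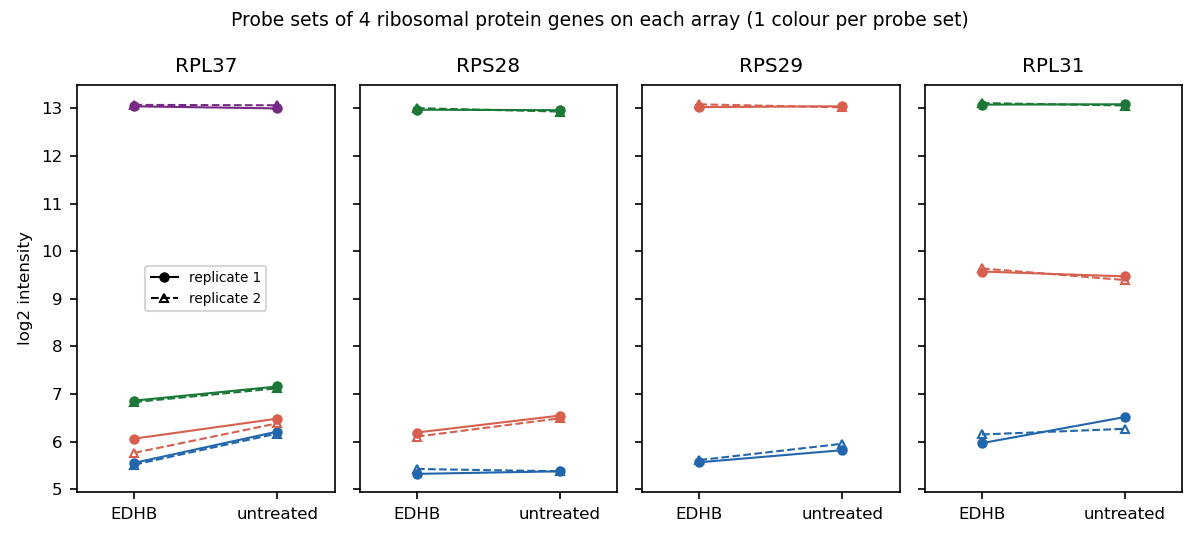
The log2 intensity (y axis) of every restored single-gene probe set of RPL37, RPS28, RPL31 and RPS29 is drawn for EDHB (left) and untreated (right) in each panel, with 1 colour per probe set, circles and solid lines for replicate 1 and triangles and dashed lines for replicate 2. Lines near 13 are flat, while several dimmer ones, such as 224766_at of RPL37, are lower on EDHB. Of the other dimmer ones, 208902_s_at of RPS28 is flat and 221593_s_at of RPL31 is higher on EDHB.

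In all, 26 members had no probe set of their own, among them RPL5, RPL10, RPL13A, RPL23, RPL26, RPLP0, RPS2, RPSA and RPS27A. For 15 of them there was a probe set that also names other genes. Over all members, 65 such shared probe sets were annotated, 49 of them with small nucleolar RNAs or microRNAs as the only partners, since many ribosomal protein genes host small RNAs in their introns. The 65 had a median change of 0.004 and a range of −0.53 to 0.13. Ribosomal protein genes also have many processed pseudogenes of nearly the same sequence. Of the 124 single-gene probe sets, 36 (29.0%) carried _x_at, the suffix that marks probes matching several sequences, against 7.3% of all single-gene probe sets. Part of the signal may therefore come from copies.

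Genes that act around the ribosome were set beside the family. The other TOP mRNAs of the translation machinery were also close to 0: 15 of 19 were measured, with a median change of −0.007 and a range of −0.07 to 0.13. None was called by limma in either fit, and at an unadjusted p under 0.05 there were 0 of 15 without the trend and 1 with it (6.7%), against 16.8% and 18.3% of all genes. EEF1A1, the elongation factor that delivers aminoacyl-tRNA, had 13.61 and 13.62 on EDHB arrays, against 13.62 and 13.63 on untreated arrays. EEF2, the translocation factor, had 12.60 and 12.59 on EDHB arrays, against 12.51 and 12.58 on untreated arrays. RACK1 had no probe set of its own.

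For translation initiation and its control, 38 of 40 genes were measured, with a median change of −0.10, and 29 of 38 were below 0. None was called in either fit. At an unadjusted p under 0.05 the fit without the trend counted 14 (36.8%), against 16.8% of all genes in either direction. Of the 14, 12 were lower, 31.6% of the 38, against 7.98% of all genes. Both EDHB arrays were below both untreated arrays for 20 of the 38 (52.6%), against 22.5% of all genes. LARP1, the TOP mRNA-binding protein, had 11.06 and 10.92 on EDHB arrays, against 11.33 and 11.26 on untreated arrays, a change of −0.31 with an adjusted p in limma of 0.207 without and 0.0672 with the trend. EIF4EBP1, the translation repressor that mTORC1 phosphorylates, had 9.37 and 9.41 on EDHB arrays, against 9.16 and 9.01 on untreated arrays, a change of 0.31 with an adjusted p in limma of 0.21 without and 0.0914 with the trend. Both had groups that did not overlap. MTOR itself had 6.55 and 6.49 on EDHB arrays, against 6.62 and 6.55 on untreated arrays.

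Genes of ribosome biogenesis, whose products process ribosomal RNA and assemble the subunits, were mostly lower on the EDHB arrays than on the untreated arrays. Of 29 listed, 24 were measured, with a median change of −0.49, −0.34 in replicate 1 and −0.64 in replicate 2. Both EDHB arrays were below both untreated arrays for 23 of the 24, against 22.5% of all genes. The limma fit without the trend called 0 of the 24, against 0.0101% of all genes. At an unadjusted p under 0.05 it counted 21 lower (87.5%), against 7.98% of all genes. The fit with the trend called 9, all lower, against 1.9% of all genes in either direction. They were UTP15, NOP16, RRS1, PNO1, LTV1, NOC3L, NOB1, NOLC1 and RRP1B. Their changes ran from −0.79 for UTP15, of the small-subunit processome, to −0.38 for RRP1B. These 9 calls fell to 0 when any 1 of the 4 arrays was left out of that fit, and with the replicate number as a block. Some of these genes were known to be lower in these arrays when the list was drawn up, so the list is not independent evidence of a direction, and the difference between it and the ribosomal proteins was not tested.

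**Figure D4:**
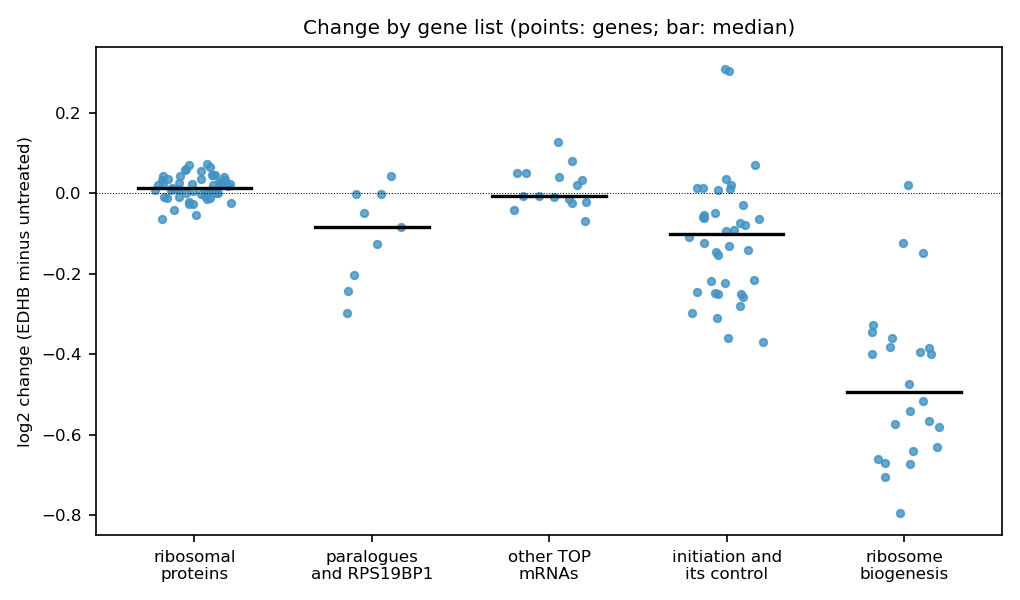
The log2 change (EDHB minus untreated, y axis) is drawn for every measured gene (point) of 5 lists, with a bar at each list's median. The 53 genes of small- and large-subunit proteins, labelled ribosomal proteins (median 0.012), and the other TOP mRNAs (−0.007) gather at 0, the paralogues with RPS19BP1 and without Y-linked genes (−0.08) and the initiation genes (−0.10) reach lower, and the biogenesis genes (−0.49) lie lowest.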

How the data were processed

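Biotin-labelled RNA was read on Affymetrix arrays. The authors deposited linear intensity values for every array, which the submitters' processing notes credit to RMA without a version. This method equalises the arrays' distributions, which removes any shift common to most probe sets. No probe-level files were used, so saturation and background could not be checked; 2 arrays per group limit the precision. Intensities ran from 1.55 to 13393, and log2 values were taken with no pseudocount.

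The table had 54613 probe sets. The replicate 2 columns stood in another row order: their values run as a list of 2-fold higher probe sets, then 2-fold lower ones, then the remainder, in ID order within each. This layout is an inference from the values that no label records. A forward-backward alignment on the untreated levels placed 54459 probe sets at a posterior of at least 0.95, and the rest were left out. The 2-fold lists of replicate 2 held 148 higher and 45 lower values, of which 113 were placed. Part of the largest changes of replicate 2 is therefore missing from the counts over all genes. The correlation of the EDHB arrays was 0.418 as deposited and 0.997 after restoring. The placement uses levels to match levels, so the agreement of replicates is partly built in.

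Probe sets were named from GEO's platform annotation: 41091 had 1 gene, 1801 several and 11721 none. Each gene took its brightest single-gene probe set. EDHB and untreated arrays were compared with limma 3.58.1 (R 4.3.3) lmFit and eBayes without covariates, without and with an intensity trend, with Benjamini-Hochberg adjustment over all 19751 genes at 0.05. The scripts were tested on simulated data with known changes in genes of all levels. The fit without the trend recovered 0% of log2 changes of 0.5 and 62% of changes of 1. With the trend it was 26% and 80%. The simulated spread was drawn from the fit with the trend, so the higher recovery of that fit is partly built in. Wrong calls numbered 4 without the trend and 12 with it. All 63 ribosomal protein changes were smaller than 0.5, so the lack of calls does not show that small changes are absent. Sequences are RefSeq's for GRCh38.p14.

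Genes named are those called, the 5 largest changes each way above the median probe set, role lists (stalk, ubiquitin fusion, 5S RNP, MDM2 binding, paralogues), a few well-known subunit proteins, the 3 with the widest spread between probe sets, and members not measured, some of which are not reported here by name. The members and lists were chosen with earlier results of these data known. Y-linked members were counted and given no level.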

Additional observations from a re-analysis of the deposited data

How the results depend on the processing

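Across the alternatives, 0 ribosomal protein genes were called in every setting, and the family's median change of 0.007 stayed within 0.030, the between-replicate SD, of that value; it was −0.006 with unsuffixed probe sets and 0.022 without the first EDHB array. The number of genes called over the whole table did depend on the setting. It was 2 (both higher) in limma without the trend and 375 with it (211 higher, 164 lower), 40 with arrays centred on their medians (30 higher, 10 lower), 43 after cyclic loess (31 higher, 12 lower), 426 when genes below the median probe set were dropped, 38 with the mean of a gene's probe sets, 0 over every probe set and 0 with a posterior minimum of 0.5. Leaving out any 1 array gave 0 to 0 genes, and so did leaving out an array from the fit with the trend, a setting added after seeing the data. With the replicate number as a block, 0 genes were called without the trend and 0 with it. The deviations of EDHB 1 and untreated 1 from their group means correlated at 0.215, a value that the other pair repeats by construction with 2 arrays per group, and no label says that the numbers mark shared cultures, so the block is given only here. Of 422 alternative values for 31 named members, 380 stayed within the spread between replicates, 42 moved by more, and 0 passed the adjusted threshold of 0.05. The spread used for a member is its own SD between replicates, not the 0.030 of the family's median, and is wider for some genes. RPLP2, for example, counted as within it at 0.185 in the replicate 1 pair, against 0.072 in the mean. The sign differed in 41 of the alternative values, 16 of them among those that moved. Part of the 380 was fixed in advance. The trend, a robust prior, the block and the lower posterior minimum leave every member's log2 change, and so the family's median, as it was. A change taken from the replicate 1 pair alone cannot differ from the mean by more than that spread. RPL37, RPL31 and RPS28 changed from above to below 0 with the choice of probe set, with −0.36, −0.05 and −0.11 for the mean of probe sets and −0.29, −0.33 and −0.37 for unsuffixed probe sets; RPLP2 had −0.14 and RPS6 0.18 for unsuffixed probe sets. Signal near the top of the array range, levels below the median probe set and 2 arrays per group limit what can be read from single genes.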
